A study of Homo sapiens with 6 samples.

Results

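The genes described here are YAP1 and WWTR1, the TEAD factors TEAD1 and TEAD4, and 6 genes tied to them, namely CYR61, CTGF, ANKRD1, AMOTL2, LATS2 and AJUBA. They were taken by symbol from the deposited tables, and all 10 were among the 16305 genes tested. The choice of genes was made with earlier results of these data known. RNA was sequenced from Huh7SR cells, called Huh7-R in the study's text, a sorafenib-resistant pool derived from the human hepatocellular carcinoma line Huh7 by long exposure to sorafenib. The drug group was 3 samples given fostamatinib, an inhibitor of spleen tyrosine kinase, for 24 h at 2 µM, and the control group was 3 samples given the solvent DMSO for 24 h, for which the labels also write 2 µM. Both groups carry the sorafenib-resistant background, and sorafenib was withdrawn from the medium some days before experiments. The cells are a resistant pool and not a single clone, and no parental Huh7 sample was compared here. The study did not detect spleen tyrosine kinase protein in Huh7 cells. In its immunoblots, at a higher dose and a shorter time, fostamatinib lowered phosphorylation of ERK, AKT, STAT3, EGFR and JNK. The labels speak of triplicates but do not say whether these were separate cultures, so p-values measure the spread between these samples, which may be technical.

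YAP1 and WWTR1, whose protein is known as TAZ, are transcriptional coactivators that do not bind DNA themselves. The Hippo kinases STK3 and STK4 activate LATS1 and LATS2, which phosphorylate YAP and TAZ and keep them out of the nucleus. When this phosphorylation is low, YAP and TAZ enter the nucleus, bind TEAD factors and switch on genes such as CTGF, CYR61 and ANKRD1. Some of the targets, LATS2 and AMOTL2 among them, restrain YAP in turn. In liver the pathway limits organ size, and YAP is often active in liver cancer. RNA levels do not show the phosphorylation or the location of these proteins.

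TEAD factors recognise the letters GGAATG, read as CATTCC on the opposite strand. The promoter windows of the 2 genes with the largest falls, CTGF and ANKRD1, and of LATS2, which rose, are shown to make these letters visible. Each is the 250 bases before the RefSeq start of the gene (from a table on GRCh38.p14), matched base for base at a single place in GRCh37, whose positions are given here, and written 5′ to 3′ along the gene. Capitals mark GGAATG on either strand and TGANTCA, which overlap nowhere in these windows. TGANTCA is a loose form of the AP-1 motif TGASTCA, where N is any base and S is C or G. The CTGF window is chr6:132272513-132272762 on the - strand, that of ANKRD1 is chr10:92680845-92681094 on the - strand and that of LATS2 is chr13:21635726-21635975 on the - strand.
CTGF: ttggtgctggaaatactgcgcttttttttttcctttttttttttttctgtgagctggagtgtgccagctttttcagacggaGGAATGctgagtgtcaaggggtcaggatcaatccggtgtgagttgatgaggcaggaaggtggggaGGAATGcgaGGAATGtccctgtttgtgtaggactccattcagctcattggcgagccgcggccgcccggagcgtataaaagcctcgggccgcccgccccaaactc
ANKRD1: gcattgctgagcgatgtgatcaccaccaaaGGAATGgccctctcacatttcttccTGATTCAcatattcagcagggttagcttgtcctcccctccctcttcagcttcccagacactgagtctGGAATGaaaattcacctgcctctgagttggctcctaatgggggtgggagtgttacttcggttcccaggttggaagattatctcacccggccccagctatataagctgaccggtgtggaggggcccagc
LATS2: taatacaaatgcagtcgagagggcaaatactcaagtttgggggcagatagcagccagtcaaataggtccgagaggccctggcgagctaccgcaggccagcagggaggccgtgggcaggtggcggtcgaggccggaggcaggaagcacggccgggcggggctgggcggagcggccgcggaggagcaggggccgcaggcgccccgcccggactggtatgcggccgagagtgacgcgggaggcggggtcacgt

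The CTGF window held 3 copies of GGAATG, at -169 to -164, -104 to -99 and -95 to -90 from the start, where -1 is the last base before it. The ANKRD1 window held 2 copies, at -220 to -215 and -128 to -123, and 1 match of TGANTCA at -195 to -189. That match has T in the middle and so is not the strict AP-1 motif. The YAP1 window held 1 copy, at -162 to -157. No copy was found in the windows of LATS2, WWTR1, AMOTL2 or AJUBA. Only 1 start per gene was searched. The WWTR1 window (149421061 to 149421310 on chromosome 3) lies inside the annotated span of that gene. The AMOTL2 window (134094260 to 134094509 on chromosome 3) overlaps the span of AMOTL2, so other starts of these genes were left unsearched. TEAD1, TEAD4 and CYR61 had no entry in the table, so 7 of the 10 genes were searched. Among 27305 promoters of the same length, 11.9% held at least 1 copy, 0.963% at least 2 and 0.0952% at least 3. A match of TGANTCA was held by 6.60%. No searched window of these genes held a CArG box, the SRF motif, which 1.14% of all promoters hold. These matches are letters in a window and not measured binding.

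After fostamatinib, ANKRD1, CTGF and TEAD4 fell more than 2-fold, CYR61, AMOTL2, YAP1 and AJUBA fell by less, and LATS2 rose. Of the 10 genes, 7 fell, 1 rose and 2, WWTR1 and TEAD1, were not called. Genes were called where limma, with Benjamini-Hochberg adjustment over all genes, gave an adjusted p-value below 0.05. Among all genes tested 47.8% were called changed, 24.5% lower and 23.3% higher, so a call by itself is common here. A fall of more than 2-fold was called for 3 of the 10 genes against 3.29% of all genes. The median log2 fold change of the 10 genes was -0.28, and that of all genes was 0.0015. In 7 of the 10 genes the 3 fostamatinib samples did not overlap the 3 DMSO samples, as in 54.1% of all genes. In bulk RNA, fewer cells that express a gene and less RNA of it per cell cannot be told apart.

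**Figure D1:**
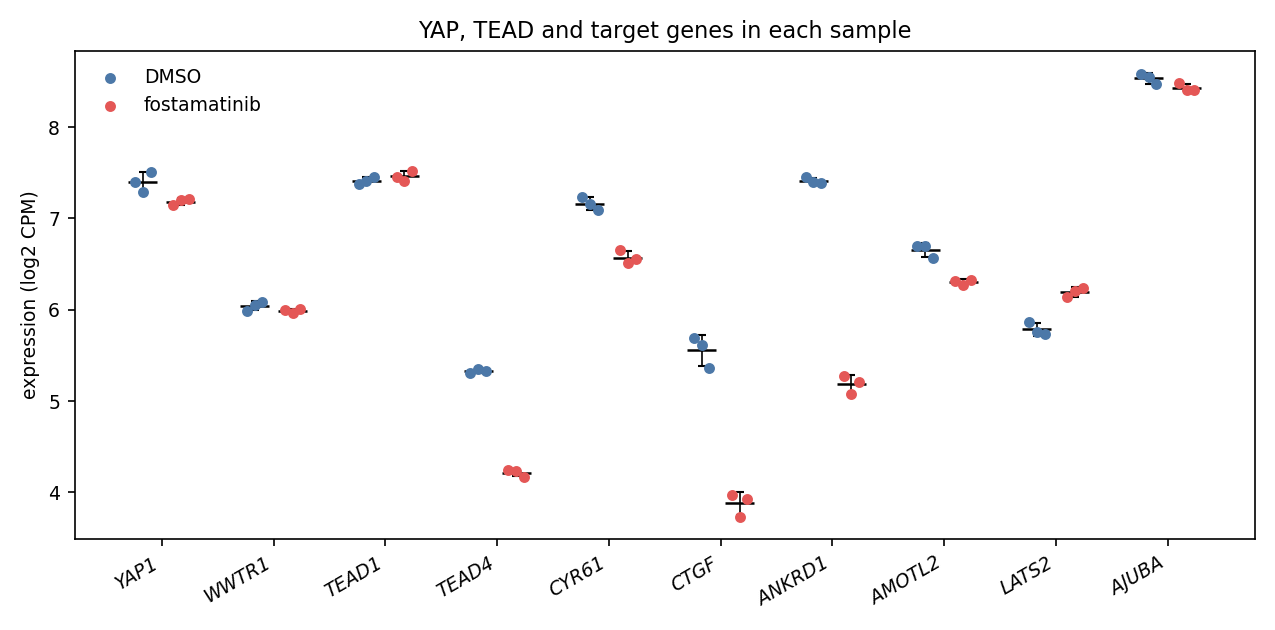
Expression in log2 CPM (read counts per library of a common size, on a log2 scale) of each of the 10 genes; points are single samples, 3 treated with DMSO in blue and 3 with fostamatinib in red, and bars are the mean and SD of each group. ANKRD1, CTGF and TEAD4 lie far apart between the groups, while the points of WWTR1, TEAD1 and AJUBA overlap.

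Among the coactivators, YAP1 (ENSG00000137693, chromosome 11 of GRCh37 from 101981178 to 102104155, + strand) measured 7.40, 7.29 and 7.50 log2 CPM with DMSO and 7.14, 7.20 and 7.21 with fostamatinib. All 3 treated samples lay below all 3 controls, but the gap was narrower than the spread of the controls. YAP1 fell by 0.21 on the log2 scale (standard error, SE, of 0.047, limma adjusted p = 2.83e-04), to 86.3% of the DMSO level. This call was lost without the mean-variance trend of the test (adjusted p = 0.0608). WWTR1 (ENSG00000018408, chromosome 3 from 149235022 to 149454501, - strand) lay between 5.99 and 6.09 log2 CPM with DMSO and between 5.96 and 6.01 with fostamatinib, and the groups overlapped. Its log2 fold change was -0.054, with a 95% interval from -0.16 to 0.054 and an adjusted p of 0.426 (limma).

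The TEAD proteins are the DNA-binding partners of YAP and TAZ, and of these TEAD genes TEAD4 fell and TEAD1 was not called. TEAD4 (ENSG00000197905, chromosome 12 from 3068496 to 3149842, + strand) had 544, 621 and 599 reads with DMSO and 261, 267 and 238 with fostamatinib. On the scaled level the DMSO mean was 5.33 ± 0.022 log2 CPM and the fostamatinib mean 4.22 ± 0.041 (SD, n = 3 each), far beyond the spread within either group. The log2 fold change was -1.11 (SE 0.070, limma adjusted p = 1.48e-15), which is 46.2% of the DMSO level. TEAD1 (ENSG00000187079, chromosome 11 from 12695968 to 12966284, + strand) measured 7.38, 7.41 and 7.46 log2 CPM with DMSO and 7.46, 7.41 and 7.52 with fostamatinib. The groups overlapped, and the log2 fold change of 0.049 had a 95% interval from -0.037 to 0.14 and an adjusted p of 0.360 (limma).

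Of the other TEAD genes, TEAD3 rose by 0.19 on the log2 scale (SE 0.058, limma adjusted p = 7.41e-03). TEAD2 had 3, 8 and 8 reads with DMSO and 1, 8 and 2 with fostamatinib, too few to place its change (log2 fold change -0.91, 95% interval from -2.21 to 0.39).

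CTGF and CYR61 encode secreted matricellular proteins of the CCN family, which bind integrins and growth factors, and both are standard readouts of YAP activity. CTGF (ENSG00000118523, annotated as CCN2, chromosome 6 from 132269316 to 132272512, - strand) had 710, 747 and 612 reads with DMSO and 216, 189 and 201 with fostamatinib. Its mean was 5.56 ± 0.17 log2 CPM with DMSO and 3.88 ± 0.13 with fostamatinib (SD, n = 3 each). The spread within the DMSO group was the widest of the 10 genes, and the distance between the groups exceeded it. The log2 fold change was -1.68 (SE 0.082, limma adjusted p = 1.41e-18), a 3.20-fold lower level.

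CYR61 (ENSG00000142871, annotated as CCN1, chromosome 1 from 86046444 to 86050272, + strand) had 2074, 2176 and 2032 reads with DMSO and 1381, 1297 and 1248 with fostamatinib. All treated samples lay below all controls, by less than for CTGF. It fell by 0.59 on the log2 scale (SE 0.048, limma adjusted p = 1.39e-12), to 66.4% of the DMSO level.

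ANKRD1, a nuclear ankyrin repeat protein first known from stressed heart muscle, had the largest fall of the 10 genes. ANKRD1 (ENSG00000148677, chromosome 10 from 92671853 to 92680844, - strand) had 2410, 2578 and 2487 reads with DMSO and 534, 480 and 489 with fostamatinib. On the log2 CPM scale the samples measured 7.45, 7.40 and 7.39 against 5.28, 5.08 and 5.21, so the groups were compact and far apart. The log2 fold change was -2.23 (SE 0.053, limma adjusted p = 1.18e-27), a 4.68-fold lower level. In the order of all 16305 genes from the largest fall, ANKRD1 stood at place 89, CTGF at 209, TEAD4 at 530 and CYR61 at 1690.

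The targets that feed back on YAP moved in opposite directions. AMOTL2, an angiomotin-family protein that binds YAP and holds it outside the nucleus, lies on chromosome 3 from 134074189 to 134094321 on the - strand (ENSG00000114019). It measured 6.70, 6.70 and 6.57 log2 CPM with DMSO and 6.32, 6.27 and 6.32 with fostamatinib, without overlap. It fell by 0.36 on the log2 scale (SE 0.050, limma adjusted p = 2.47e-07).

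LATS2, a kinase that phosphorylates YAP and TAZ, lies on chromosome 13 from 21547175 to 21635725 on the - strand (ENSG00000150457). It measured 5.87, 5.76 and 5.73 log2 CPM with DMSO and 6.14, 6.21 and 6.24 with fostamatinib. Every treated sample was above every control, the only one of the 10 genes with that order. The log2 fold change was 0.41 (SE 0.055, limma adjusted p = 1.00e-07), a 1.33-fold higher level.

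AJUBA, a LIM-domain scaffold that binds LATS kinases and dampens them, lies on chromosome 14 from 23440386 to 23451760 on the - strand (ENSG00000129474). It measured 8.59, 8.55 and 8.47 log2 CPM with DMSO and 8.48, 8.40 and 8.41 with fostamatinib, and the groups overlapped. Its log2 fold change was -0.10 (SE 0.038, limma adjusted p = 0.0236). That call was lost without the mean-variance trend (adjusted p = 0.177), and without DMSO replicate 1 (0.154), DMSO replicate 2 (0.0597), fostamatinib replicate 2 (0.116) or fostamatinib replicate 3 (0.0963).

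**Figure D2:**
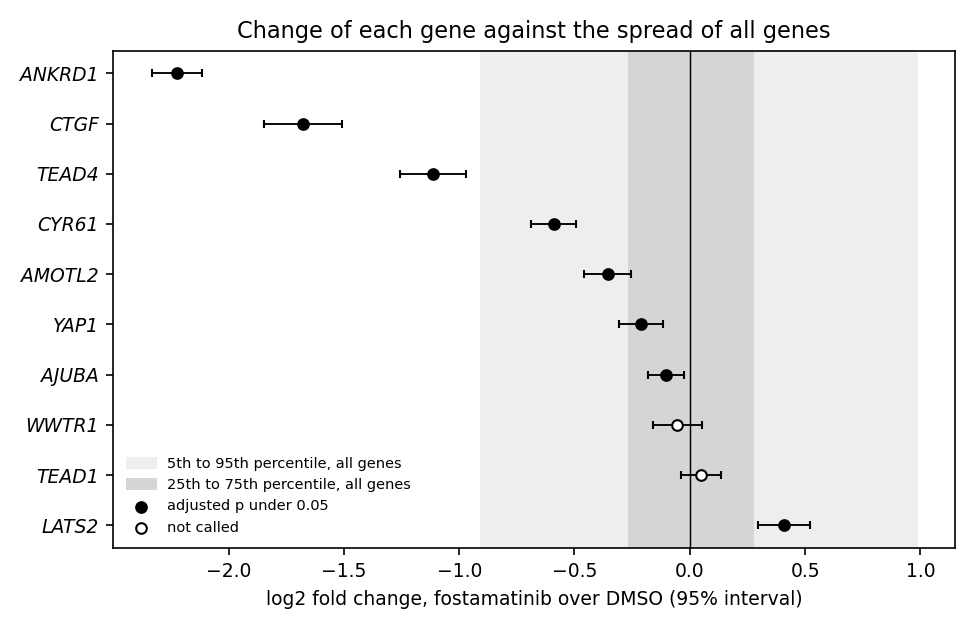
Log2 fold change of each gene (x axis, fostamatinib over DMSO, with limma's 95% interval), drawn over the middle of the distribution of all 16305 genes; filled points are genes called by limma. ANKRD1, CTGF and TEAD4 lie below the 5th percentile of all genes (-0.907), while the points of YAP1, AJUBA, WWTR1 and TEAD1 lie between the 25th (-0.266) and the 75th (0.274).

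For each of the 7 genes without overlap, a two-sided exact permutation test over the samples gave p = 0.10, the smallest p that 3 samples against 3 allow. The adjusted p-values of limma are far smaller because limma borrows the spread of other genes: its tests had 33.9 degrees of freedom in the median, of which 4 came from the gene itself. Without the mean-variance trend the adjusted p-values were 1.15e-04 for ANKRD1, 1.97e-04 for TEAD4, 5.69e-04 for CTGF, 2.07e-03 for CYR61, 4.90e-03 for LATS2 and 6.88e-03 for AMOTL2 (limma).

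Family members were also compared within each sample, as the difference of their log2 CPM values, for 3 pairs. These values are not scaled for gene length, so the difference is read for its change between the groups and not for which gene of a pair was higher. TEAD1 minus TEAD4 was 2.07, 2.06 and 2.12 with DMSO and 3.21, 3.18 and 3.35 with fostamatinib. The difference widened by 1.16 (standard error 0.055), without overlap of the groups (exact permutation test, two-sided, p = 0.10, adjusted p = 0.15 over the 3 pairs). CYR61 minus CTGF was 1.55, 1.54 and 1.73 with DMSO and 2.67, 2.78 and 2.63 with fostamatinib. This difference widened by 1.09 (standard error 0.075), again without overlap (exact permutation test, two-sided, p = 0.10, adjusted p = 0.15). YAP1 minus WWTR1 was 1.41, 1.23 and 1.42 with DMSO and 1.14, 1.24 and 1.21 with fostamatinib. That change of -0.16 (standard error 0.066) did not separate the groups (exact permutation test, two-sided, p = 0.20, adjusted p = 0.20). The smallest p of this design is 0.10, so none of the pairs could pass a threshold of 0.05.

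**Figure D3:**
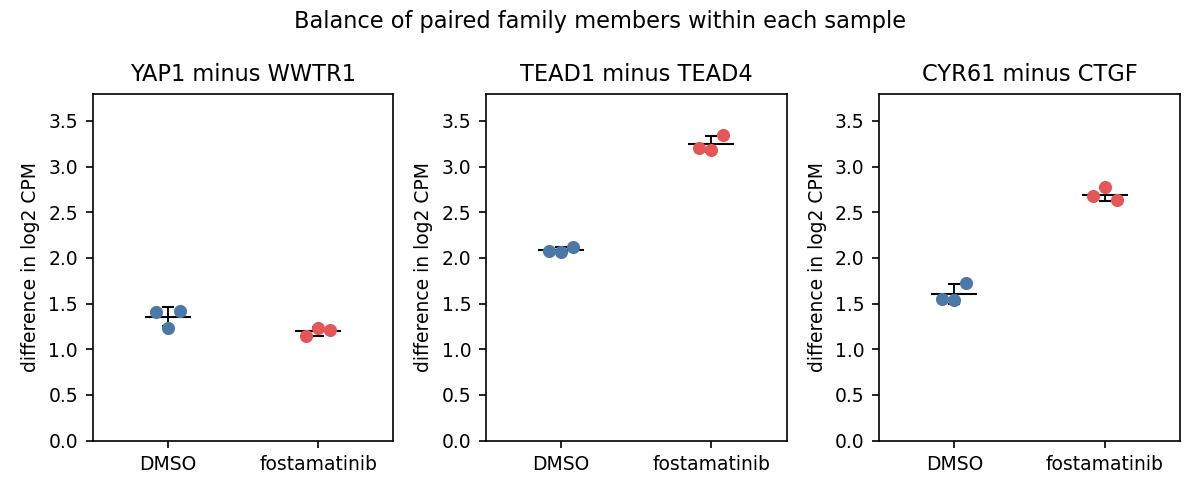
Difference in log2 CPM between the members of each pair (y axis) within each sample, for YAP1 minus WWTR1, TEAD1 minus TEAD4 and CYR61 minus CTGF; points are the 3 samples of each group, bars the mean and SD. The fostamatinib points of the TEAD and CCN pairs lie above all DMSO points, while those of YAP1 and WWTR1 overlap them.

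Levels of different genes were compared per length, as reads per kilobase of merged exon, scaled for library size (RPKM, with exons merged over all annotated transcripts). In the DMSO samples ANKRD1 had the highest level of the 10 genes, 95.2 ± 2.22 RPKM (SD, n = 3), followed by AJUBA with 63.0 ± 2.58, CYR61 with 38.7 ± 1.87 and YAP1 with 26.8 ± 2.02. WWTR1 had the lowest, 7.89 ± 0.262 RPKM (SD, n = 3). Neighbours in this order overlapped only for CTGF with TEAD4 (20.2 ± 2.30 and 17.7 ± 0.273) and for TEAD1 with AMOTL2 (15.9 ± 0.440 and 15.6 ± 0.824). With fostamatinib no neighbours overlapped. Overlap here covers the spread between samples and not the error of the lengths, so the order of genes at close levels is uncertain. AJUBA then stood first with 58.6 ± 1.81 RPKM (SD, n = 3), ANKRD1 stood at place 4 with 20.4 ± 1.45, and CTGF last with 6.29 ± 0.549. Per length TEAD1 lay below TEAD4 with DMSO, the reverse of their order in log2 CPM, and above it with fostamatinib, with a ratio of TEAD1 to TEAD4 of 0.903 ± 0.0196 and 2.03 ± 0.129 (SD, n = 3 each).

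The wider pathway was read from 4 lists, which were written with earlier results of these data known. Of 16 other genes known as YAP targets, 15 were tested, and 10 of these fell, 2 rose and 3 did not pass the test, with a median log2 fold change of -0.68 against 0.0015 over all genes. Over all genes 24.5% fell and 23.3% rose. More than 2-fold falls were called for 5 of the 15, against 3.29% of all genes. FJX1 is among the 5. It met the authors' filter of 5 reads in 2 samples of a group only in DMSO, where it was high. Of the 14 genes that met the filter in both groups, 9 fell, 2 rose and 3 did not pass the test. Their median log2 fold change was -0.63. Falls of more than 2-fold were called for 4 of these 14, against 2.70% of 15126 genes. GADD45A, a growth arrest gene that also responds to DNA damage and nutrient stress, had 1156, 1192 and 1188 reads with DMSO and 276, 264 and 280 with fostamatinib, a log2 fold change of -2.02 (SE 0.064, limma adjusted p = 5.72e-24). FJX1 had 15, 13 and 12 reads against 4, 3 and 3, and the few reads left an SE of 0.46 around its log2 fold change of -1.77 (limma adjusted p = 1.58e-03). TGFB2, a TGF-beta ligand that the study itself had picked on these samples and which is therefore no independent evidence, had a log2 fold change of -1.42, and the RNA-binding protein gene RBMS3 one of -1.10. DOCK5 and ARHGEF17 rose by 0.47 and 0.41 on the log2 scale. The values of the receptor kinase gene AXL (0.014, adjusted p = 0.856), of CRIM1 (-0.047, adjusted p = 0.326) and of MYOF (-0.079, adjusted p = 0.0696, limma) did not pass the test. FOXF2 was not analysed here.

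**Figure D4:**
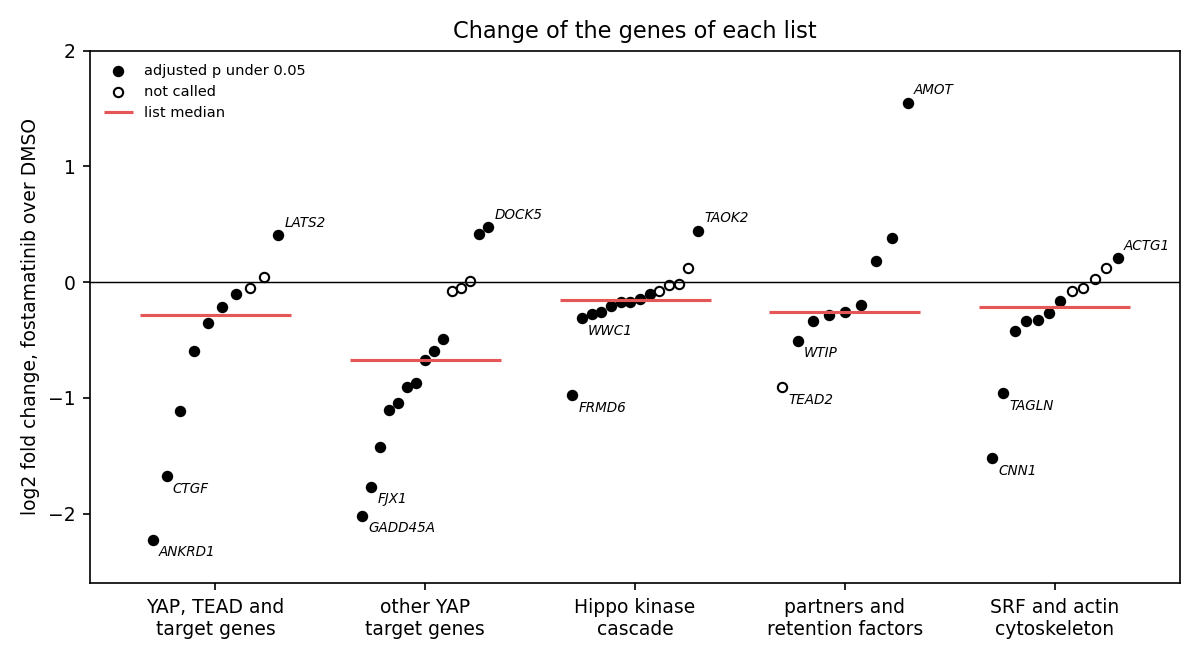
Log2 fold change (y axis, fostamatinib over DMSO) of every tested gene of the 10 described here and of 4 further lists; filled points were called by limma (adjusted p below 0.05) and red lines are list medians. The median of the other YAP target genes lies at -0.68, that of the Hippo kinase cascade at -0.16. Without FJX1, which met the read filter only in DMSO, the former is -0.63.

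Of 14 genes of the Hippo kinase cascade, 9 fell, 1 rose and 4 did not pass the test, where 24.5% of all genes fell and 23.3% rose. None of the 14 was called with a change of more than 2-fold. Of all 16305 genes, 536 were called lower and 627 higher by that much, so few such calls would be met in a list of this length. The median log2 fold change of the 14 was -0.16. FRMD6, a FERM-domain protein at the membrane end of the cascade, had 545, 517 and 557 reads with DMSO and 244, 290 and 242 with fostamatinib, a log2 fold change of -0.98 (SE 0.077, limma adjusted p = 5.63e-13). The upstream scaffolds WWC1, NF2 and SAV1 fell by 0.31, 0.28 and 0.26 on the log2 scale, and the kinase TAOK2 rose by 0.45. LATS1, named here after its values were seen because LATS2 rose, fell by 0.21 (SE 0.052, limma adjusted p = 1.21e-03).

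Among 9 further partners and retention factors, 5 fell, 3 rose and 1, TEAD2, did not pass the test, with a median of -0.26, where 24.5% of all genes fell and 23.3% rose. AMOT met the filter on low reads only in the fostamatinib samples and TEAD2 only in the DMSO samples, and of the 7 genes that met it in both groups 5 fell and 2 rose. WTIP and LIMD1, relatives of AJUBA, fell by 0.51 and 0.26 on the log2 scale. VGLL3 and VGLL4, cofactors that compete with YAP for TEAD, fell by 0.33 and 0.28. AMOTL1, a relative of AMOTL2, rose by 0.38 (SE 0.055, limma adjusted p = 3.85e-07). AMOT, the third member of that family, had 2, 1 and 2 reads with DMSO and 5, 5 and 6 with fostamatinib, and its adjusted p of 0.0496 (limma) lay at the threshold.

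SRF and its cofactors of the MRTF family form another actin-controlled transcription pathway, which shares targets with YAP. Of 12 genes of that pathway and of the actin cytoskeleton, 7 fell, 1 rose and 4 did not pass the test, with a median of -0.21, against the same 24.5% and 23.3% of all genes. CNN1, which encodes calponin, had 116, 132 and 117 reads with DMSO and 61, 36 and 28 with fostamatinib, a log2 fold change of -1.52 (SE 0.19, limma adjusted p = 1.89e-08). TAGLN (transgelin), TPM1 (a tropomyosin) and SRF itself fell by 0.96, 0.42 and 0.34 on the log2 scale. Of the cytoplasmic actin genes, ACTG1 rose by 0.21 and ACTB had a value of 0.025 (adjusted p = 0.560, limma).

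Genes at large were also counted by copies of GGAATG. Of the 11179 tested genes with a promoter in the table, 10127 held no copy, and 27.7% of these fell and 25.7% rose. Of the 974 genes with 1 copy 29.3% fell and 26.3% rose. Of the 70 genes with 2 copies 27.1% fell and 25.7% rose, and of the 8 genes with 3 or more, 3 fell, CTGF among them, and 1 rose.

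The libraries held 13303451 to 15272737 reads on the genes tested, and no sample held fewer than 189 reads of any of the 10 genes. Log2 values of replicates correlated at 0.9879 to 0.9885 and those of samples in different groups at 0.9698 to 0.9719. Hepatocyte lineage markers, ALB, AFP and HNF4A among them, were expressed in every sample, which is the lineage of the labelled line. All 8 were called higher after fostamatinib, where 23.3% of all genes were. Their log2 fold changes ran from 0.21 (APOB) to 3.19 (APOA1). Their summed level was 4417 to 4748 CPM with DMSO against 5896 to 6221 CPM with fostamatinib. Of 6 fibroblast markers 5 were tested, and 2 rose, 1 fell and 2 did not pass the test, where 24.5% of all genes fell and 23.3% rose. Their summed level was 298 to 306 CPM with DMSO against 308 to 312 with fostamatinib. The genes LUM and COL1A2 made up most of it, none of the 5 was at 0 reads, and DCN was not analysed here. Of 4 endothelial markers only PECAM1 was tested, and it rose from 84, 97 and 103 reads to 120, 141 and 120. None of the 4 leukocyte markers was analysed here. The part of these markers in the changes above was not tested.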

How the data were processed

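RNA-seq data of Huh7SR cells treated with fostamatinib (3 samples) or DMSO (3 samples) were used. The authors aligned the reads with HISAT (hg19), took gene counts from featureCounts with an earlier GENCODE release, dropped genes that had few reads in both groups and applied TMM normalization. Tool versions are not given in the sources used here. The deposited values are log2 CPM, in which the authors raised every count by 0.5 and multiplied library sizes by the TMM factors, which understates changes of genes with few reads. Reads were recovered from them, with 100% of the values within 0.05 of a whole number. In each file 1 gene stood in 7 rows with identical values and was used once.

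Groups were compared with limma 3.58.1 (lmFit, eBayes with a mean-variance trend) in R 4.3.3 over 16305 genes, with Benjamini-Hochberg adjustment and a threshold of 0.05. A limma fit of the same kind was tested in separate code on simulated counts with a fixed dispersion. The script that gave the results was not itself run on them. Tables, exact permutation tests and plots used Python 3.11.15, numpy 2.4.6, pandas 2.3.3, scipy 1.17.1 and matplotlib 3.10.9. Positions and lengths are from GRCh37 (the same build as hg19) with GENCODE 44 mapped to it, where 98.7% of identifiers were found. The GENCODE release of the authors was made on GRCh38 while the alignment was to hg19, and how they were joined is not given in the sources used here, so RPKM levels rest on lengths that may differ from the gene models counted. The library kit marks strand, but whether the counting used it is not given in the sources used here. Other annotated genes share exon bases with CTGF (11.9% of its exon bases), YAP1 (10.1%), WWTR1 (9.05%), AMOTL2 (2.89%) and AJUBA (0.85%), so reads there cannot be assigned with certainty; none of those other genes was among the genes tested.

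The genes and lists were chosen with earlier results of these data known. Named were all 10 genes, up to 4 called genes each way of every list, and genes not called whose role needed a value. Alternatives were another moderation, limma-voom on the recovered reads, other size factors, another pseudocount, stricter filters, a replicate block, the omission of each sample and a threshold of 1 expected false positive.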

Additional observations from a re-analysis of the deposited data

How the results depend on the processing

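No change of the 10 genes turned its direction under the 16 alternatives tried for each. Of these 160 values, 152 stayed on their side of the threshold, and the 8 that did not belong to YAP1 and AJUBA; with a threshold of 1 expected false positive neither was called. That threshold left 4136 genes called among all genes in place of 7794, 4 in the Hippo kinase cascade in place of 10 and 3 of the partners and retention factors in place of 8. With the mean-variance trend left out 6 of the 10 genes were called, against 8, and 6382 of all genes, against 7794. Leaving out 1 sample at a time, 7 to 8 of the 10 genes were called, 6958 to 7480 of all genes, 8 to 9 of the Hippo kinase cascade, 6 to 8 of the partners, 12 of the other YAP target genes throughout and 7 to 10 of the SRF and actin genes. The fall of ANKRD1 then lay between -2.27 and -2.17, that of CTGF between -1.77 and -1.60 and that of TEAD4 between -1.13 and -1.09 on the log2 scale. The groups share replicate numbers 1 to 3 in the labels. Samples with the same number, each taken as its distance from its group mean, correlated at 0.0278, -0.0192 and 0.0132, so the numbers were not taken to pair the samples. With the replicate number as a block, 8 of the 10 genes and 7977 of all genes were called. An unfiltered run was not possible, as low genes were removed from the tables before deposit. Scaling moved the median of all genes by no more than 0.1 on the log2 scale. Precision is limited by 3 samples per group and, for AMOT, TEAD2 and FJX1, by few reads.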
